A study of Mus musculus with 9 samples.

Results

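Lin28a, Lin28b, Trim71, Igf2bp1, Igf2bp2, Igf2bp3, Hmga1, Hmga2, Sall4 and L1td1 are heterochronic genes, the mammalian relatives, partners and targets of a pathway that times developmental transitions in the nematode. The 10 genes were taken by symbol through their Ensembl identifiers, and each had 1 row among the 45706 gene identifiers of the deposited count table. All 10 were among the 17971 genes that passed the filter on low counts. RNA-seq libraries were made from C57BL6/J mice, with no treatment or mutation labelled, in 3 stages named by embryonic (E) or postnatal (P) day. Each stage (E9.5, E14.5, P60) has 3 libraries. The E9.5 material was embryonic head, severed behind the fourth ventricle and trimmed of much that was not neuroectoderm. The E14.5 material was brain freed of meninges, and the P60 material was the CNS of adults anaesthetised with ketamine and xylazine and perfused with buffered saline. Every stage was labelled as whole CNS tissue, and the labels do not say whether the 3 libraries of a stage came from separate animals or litters. The p-values below therefore measure only the spread between these libraries, which may be technical. Individual libraries differed from the others of their stage. The first at E9.5 did so most clearly, where 6 heart and muscle markers summed to 338 CPM (reads per 1000000 of the library's total after TMM adjustment), against 5.49 and 5.64 CPM in the other two. In the first at E14.5 the neural progenitor markers summed to 2820 CPM and the HMG-box and HMGN genes to 1850 CPM, against 2100 and 2170 CPM and 1160 and 1170 CPM in the other two, while the 10 heterochronic genes summed to 226 CPM, between 219 and 243 CPM in the other two.

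LIN28A and LIN28B are RNA-binding proteins that hold back the maturation of let-7 microRNAs by binding the loop of the let-7 precursor. Mature let-7 in turn represses messages that carry its seed match, among them those of Lin28a and Lin28b themselves, Trim71, Hmga2 and Igf2bp1, so that the LIN28 proteins and let-7 oppose each other. The family is known from embryonic stem cells and early neural progenitors, in which LIN28 proteins, HMGA2 and IGF2BP1 favour growth and self-renewal.

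In GRCm38, as GENCODE M21 gives it, Lin28a (ENSMUSG00000050966) lies at chr4:134003330-134018841 on the minus strand. Lin28b (ENSMUSG00000063804) lies at chr10:45376620-45486395 on the minus strand. Trim71 (ENSMUSG00000079259) lies at chr9:114507133-114564369 on the minus strand. Igf2bp1 (ENSMUSG00000013415) lies at chr11:95957163-96005940 on the minus strand. Igf2bp2 (ENSMUSG00000033581) lies at chr16:22059009-22163299 on the minus strand. Igf2bp3 (ENSMUSG00000029814) lies at chr6:49085223-49214957 on the minus strand. Hmga1 (ENSMUSG00000046711) lies at chr17:27556497-27563674 on the plus strand. Hmga2 (ENSMUSG00000056758) lies at chr10:120361275-120476469 on the minus strand. Sall4 (ENSMUSG00000027547) lies at chr2:168748332-168767943 on the minus strand. L1td1 (ENSMUSG00000087166) lies at chr4:98726734-98738480 on the plus strand.

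The letters of this circuit can be read in the reference. The 9 mature microRNAs of the let-7 and miR-98 family read from RefSeq (GRCm38.p6) share one seed, bases 2 to 8, shown in capitals below, while the 2 miR-125 microRNAs, the mammalian lin-4 relatives, share another. A few of them show how far the bases after the seed differ.
let-7a-5p: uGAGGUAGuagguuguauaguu
let-7g-5p: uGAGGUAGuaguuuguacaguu
miR-98-5p: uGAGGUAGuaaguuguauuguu
miR-125b-5p: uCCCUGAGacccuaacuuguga

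A match to the let-7 seed (CTACCTC, on the sense strand) lies in the annotated 3′ UTR of 9 of the 10 genes, 22 matches in all, against 8.846% of 20981 mouse 3′ UTRs (longest coding transcript of each gene, GENCODE M21, GRCm38). L1td1, whose 3′ UTR is 364 bases long, has none. The first match of each of the 9 genes is printed below with the 15 bases before it and the base after it. Capitals mark the match, and every site lies in the 3′ UTR of its gene.
Lin28a, chr4:134005189-134005211, minus strand: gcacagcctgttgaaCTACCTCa
Lin28b, chr10:45381022-45381044, minus strand: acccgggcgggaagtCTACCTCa
Trim71, chr9:114512472-114512494, minus strand: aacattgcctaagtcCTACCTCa
Igf2bp1, chr11:95961778-95961800, minus strand: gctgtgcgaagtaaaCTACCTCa
Igf2bp2, chr16:22059473-22059495, minus strand: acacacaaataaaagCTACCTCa
Igf2bp3, chr6:49086787-49086809, minus strand: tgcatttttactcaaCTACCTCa
Hmga1, chr17:27563277-27563299, plus strand: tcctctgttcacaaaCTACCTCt
Hmga2, chr10:120364224-120364246, minus strand: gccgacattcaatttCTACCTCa
Sall4, chr2:168748940-168748962, minus strand: agggctttaatttatCTACCTCa

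Lin28b, Trim71, Igf2bp1 and Hmga2 each hold 4 matches, and Lin28a holds 2. Only 12 of all 20981 3′ UTRs (0.057%) hold 4 or more, and these 4 genes are among the 12. Long 3′ UTRs offer more places for a match, so each was also set beside the UTRs within 10% of its own length. Among the 1092 UTRs close in length to that of Hmga2 (3014 bases), 0.18% hold at least 4 matches, and among the 386 close to that of Trim71 (5512 bases) the share is 0.26%. The share is 0.41% for Igf2bp1 (241 UTRs, 6337 bases) and 0.5% for Lin28b (601 UTRs, 4445 bases), and for Lin28a 2.05% of 1173 UTRs hold at least 2 (2775 bases). For the single matches of Igf2bp2, Igf2bp3, Hmga1 and Sall4 the shares are 10.85%, 14.15%, 8.37% and 10.64%, in that order. The miR-125 seed match (CTCAGGG) lies once each in Lin28a, Lin28b, Trim71 and Igf2bp3, which is 4 of the 10 genes, against 13.04% of all 3′ UTRs. Among UTRs close in length to these, 25.49%, 30.45%, 39.64% and 20.33% hold at least 1, in that order. For the members without a match, that share runs from 4.29% (L1td1) to 43.98% (Igf2bp1). A single miR-125 match is therefore common at these lengths. In Lin28a the miR-125 match stands before the first let-7 match.
Lin28a, miR-125 match, chr4:134005301-134005323, minus strand: aggtacatgagcaatCTCAGGGa

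A match to a seed is a description of the letters and does not show that a microRNA acts there.

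**Figure D1:**
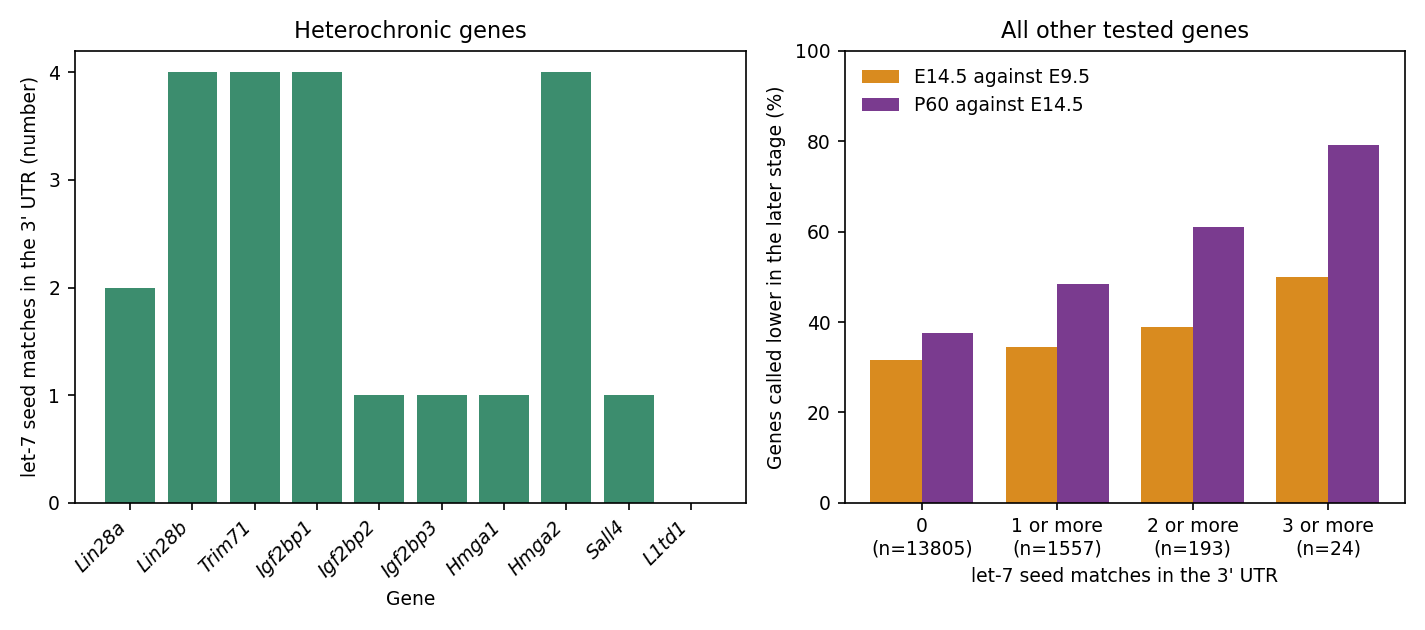
Left, number of let-7 seed matches in the annotated 3′ UTR of each heterochronic gene. Right, percent of all other tested genes called lower in the later stage of each step, by the number of let-7 seed matches, with nested groups (n under each pair of bars). The bars rise to 4 for Lin28b, Trim71, Igf2bp1 and Hmga2, and from 37.6% for genes with no match to 79.2% for the 24 genes with 3 or more in the step to P60.

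All 10 genes were at their highest at E9.5. Together they took 3560 to 3690 CPM at E9.5, 219 to 243 CPM at E14.5 and 20.1 to 27.3 CPM at P60. In the step from E9.5 to E14.5, 10 of 10 genes fell at an adjusted p below 0.05 (edgeR quasi-likelihood test, Benjamini-Hochberg over all genes), against a background of 30.7% of all tested genes that were lower and 34.0% that were higher. In the step from E14.5 to P60, 9 of 10 fell, with L1td1 not called, against a background of 39.4% lower and 36.7% higher. Across the whole interval all 10 were lower at P60 than at E9.5, against 40.6% of tested genes lower and 42.0% higher. Every library of the later stage lay below every library of the earlier one for 10 of 10 genes from E9.5 to E14.5 (35.1% of tested genes), for 9 of 10 from E14.5 to P60 (39.4%), and for 10 of 10 from E9.5 to P60 (42.1%). The 9 genes fell in both steps, as 14.6% of tested genes did. In bulk tissue, fewer cells of a type and less RNA per cell cannot be told apart, and the dissections differed with the stage.

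**Figure D2:**
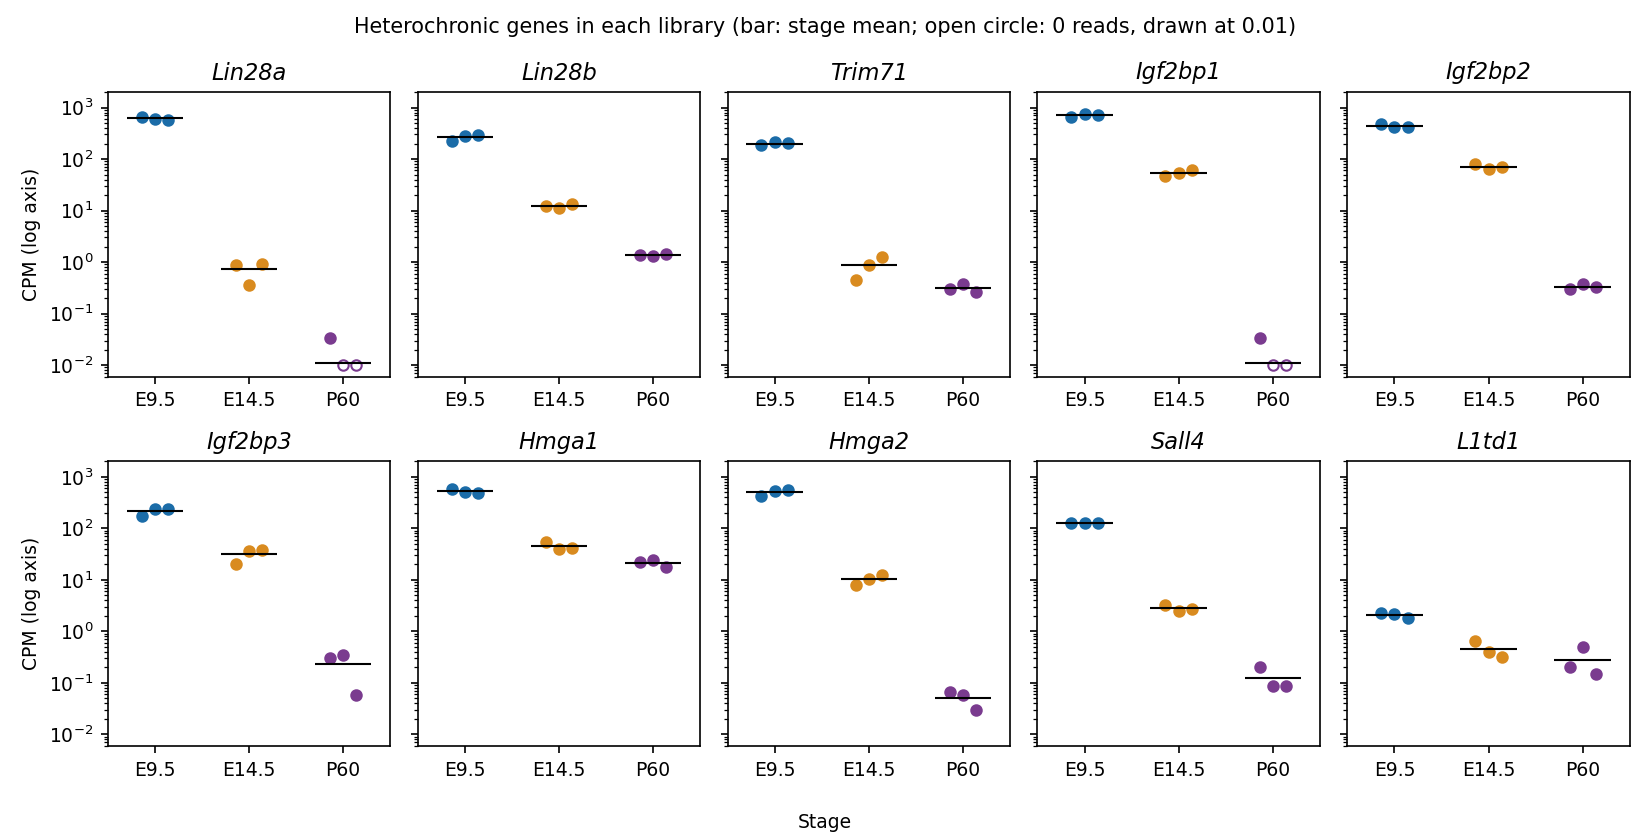
CPM of each heterochronic gene in each of the 9 libraries on a log axis, with the stage mean as a bar and libraries without a read as open circles at the foot. Libraries of different stages do not overlap, except for L1td1 at E14.5 and P60. Hmga1 keeps a mean of 21.3 CPM at P60.

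Lin28a and Lin28b, the let-7 blockers, both fell in each step. Lin28a stood at 668, 610 and 563 CPM in the E9.5 libraries, 0.874, 0.364 and 0.92 CPM in the E14.5 libraries and 0.0333, 0 and 0 CPM in the P60 libraries. Its P60 value is a single read in 1 of the 3 libraries. A library with no read still allows up to 3 reads, or 0.0881 CPM in the second P60 library. E14.5 libraries averaged 0.719 ± 0.309 CPM against 613 ± 52.5 CPM at E9.5 (SD, n = 3 each), a log2 fold change of -9.74 ± 0.34 (SE, adjusted p = 1.1e-08) that was the fifth lowest of all tested genes. The fitted change from E14.5 to P60 was -5.68 ± 0.72 (adjusted p = 3.2e-05). The reads themselves gave 1 at P60 and 74 at E14.5, a ratio of E14.5 over P60 of 69.9 with a 95% counting interval of 12.2 to 2800. Each SE of a fitted change is its absolute value over the square root of the test's F statistic, which is an approximation. At P60 it understates even the counting error of Lin28a, Igf2bp1 and Hmga2, which had 1, 1 and 5 reads in all.

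Lin28b stood at 227, 285 and 290 CPM in the E9.5 libraries, 12.1, 11.3 and 13.3 CPM in the E14.5 libraries and 1.37, 1.32 and 1.44 CPM in the P60 libraries. Its stages did not overlap, and it kept a small number of reads in each P60 library (41, 45 and 49). Their coefficient of variation, 4.49%, is below what counting error alone would give, so it does not measure how repeatable the level is. The log2 fold change was -4.45 ± 0.16 from E9.5 to E14.5 (adjusted p = 1.1e-08) and -3.14 ± 0.17 from E14.5 to P60 (adjusted p = 5.4e-08). Per kilobase of exon, Lin28a was 5.21 times the level of Lin28b at E9.5, 0.134 times its level at E14.5 and 0.0183 times at P60, so the order of the 2 paralogs turned over between E9.5 and E14.5. As a log2 ratio of (CPM + 1) per library, Lin28a over Lin28b was 1.56, 1.09 and 0.96 in the E9.5 libraries, -2.8, -3.17 and -2.89 in the E14.5 libraries and -1.2, -1.21 and -1.29 in the P60 libraries. The 3 stages differed in this ratio (exact permutation test of F over 1680 assignments, p = 0.0036, the smallest this design allows, adjusted p = 0.0054 over 6 pairs). At P60, where Lin28a had 1 read and Lin28b 135, the added 1 CPM sets most of this ratio.

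Trim71, the mammalian lin-41, encodes a TRIM-NHL protein that represses target messages and is itself a let-7 target. Trim71 stood at 187, 210 and 201 CPM in the E9.5 libraries, 0.452, 0.895 and 1.24 CPM in the E14.5 libraries and 0.3, 0.382 and 0.265 CPM in the P60 libraries. The change from E9.5 to E14.5 was -7.84 ± 0.30 (log2, adjusted p = 1.1e-08). From E14.5 to P60 it was -1.44 ± 0.35 (adjusted p = 0.0033), with 31 reads at P60 and 90 at E14.5. On the log2 scale 84.5% of the fall of Trim71 lay in the first step, the highest share among the 10 genes. The log2 ratio of Lin28a over Trim71 averaged 1.61 ± 0.19 at E9.5, -0.11 ± 0.43 at E14.5 and -0.38 ± 0.08 at P60 (SD, n = 3 each, exact permutation test p = 0.018, adjusted p = 0.021 over 6 pairs), and at the later stages both genes had few reads.

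The 3 Igf2bp genes encode KH-domain RNA-binding proteins that hold messages such as those of Igf2, Myc and beta-actin and govern their stability, place and translation. All 3 fell more in the second step than in the first. Igf2bp1 stood at 668, 736 and 728 CPM at E9.5 and at 46.9, 52.7 and 61.2 CPM at E14.5. At P60 it had 1 read in the first library and none in the others (0.0333, 0 and 0 CPM). The fitted log2 fold change was -3.73 ± 0.19 from E9.5 to E14.5 (adjusted p = 5.4e-08) and -11.9 ± 0.37 from E14.5 to P60 (adjusted p = 3.6e-09). The reads gave 1 at P60 and 5570 at E14.5, a ratio of E14.5 over P60 of 5260 with a counting interval of 944 to 208000. That interval is far wider than the SE of 0.37 would give. Over the whole interval Igf2bp1 had the lowest fitted fold change of all 17971 tested genes, Lin28a ranked 3 from the bottom and Hmga2 ranked 6. These ranks rest on P60 totals of 1, 1 and 5 reads, in that order, too few to settle the order of the lowest genes.

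Igf2bp2 stood at 474, 423 and 427 CPM in the E9.5 libraries, 79.6, 63.9 and 70.5 CPM in the E14.5 libraries and 0.3, 0.382 and 0.324 CPM in the P60 libraries. Igf2bp3 stood at 178, 240 and 239 CPM in the E9.5 libraries, 20.2, 36.4 and 38.4 CPM in the E14.5 libraries and 0.3, 0.352 and 0.0589 CPM in the P60 libraries. In neither gene did any 2 stages overlap. The first E14.5 library was the lowest of its stage for Igf2bp3, and the third P60 library, with 2 reads, was the lowest there. The log2 fold change of Igf2bp2 was -2.63 ± 0.14 to E14.5 (adjusted p = 7.9e-08) and -7.71 ± 0.20 to P60 (adjusted p = 2.9e-09). That of Igf2bp3 was -2.79 ± 0.30 (adjusted p = 1.3e-05) and -7.05 ± 0.43 (adjusted p = 1.4e-07) in the same steps. Igf2bp3 overlaps Malsu1, a gene on the opposite strand that held 1440 reads at E9.5, 1228 at E14.5 and 2640 at P60. With the strand setting of the counting unstated, reads of the stretch both genes share cannot be told apart.

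Within the Igf2bp family the balance moved toward Igf2bp2 and Igf2bp3. Per kilobase of exon, Igf2bp1 was 1.23 times the level of Igf2bp2 at E9.5 and 0.575 times at E14.5. The log2 ratio of Igf2bp1 over Igf2bp2 averaged 0.69 ± 0.17 at E9.5, -0.41 ± 0.30 at E14.5 and -0.4 ± 0.07 at P60 (SD, n = 3 each, exact permutation test p = 0.036, adjusted p = 0.036 over 6 pairs). The log2 ratio of Igf2bp3 over Igf2bp1 averaged -1.71 ± 0.17 at E9.5, -0.78 ± 0.34 at E14.5 and 0.28 ± 0.18 at P60, with no overlap between stages (exact permutation test p = 0.0036, adjusted p = 0.0054). At P60 all 3 genes are near 0 and the added 1 CPM sets most of these ratios. The plain reads there were 1 for Igf2bp1, 33 for Igf2bp2 and 23 for Igf2bp3 over the 3 libraries.

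Hmga1 and Hmga2 encode AT-hook proteins that bend DNA and open chromatin, and in mice Hmga2 is known to hold down the Ink4a/Arf products in young neural stem cells. Both fell in each step, and Hmga2 lost more than Hmga1. Hmga1 stood at 593, 514 and 495 CPM in the E9.5 libraries, 54.1, 39.6 and 41.5 CPM in the E14.5 libraries and 21.9, 24.2 and 17.8 CPM in the P60 libraries. Hmga2 stood at 430, 544 and 553 CPM in the E9.5 libraries, 7.92, 10.5 and 12.6 CPM in the E14.5 libraries and 0.0666, 0.0587 and 0.0295 CPM in the P60 libraries. The stages did not overlap in either gene, and at P60 Hmga1 held 2084 reads where Hmga2 held 5.

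Hmga1 changed by -3.57 ± 0.19 on the log2 scale to E14.5 (adjusted p = 6.8e-08) and by -1.08 ± 0.17 to P60 (adjusted p = 0.00019), a level 2.12-fold lower in P60 than in E14.5 libraries. The changes of Hmga2 were -5.62 ± 0.22 (adjusted p = 1.4e-08) and -7.56 ± 0.34 (adjusted p = 1.9e-08). The log2 ratio of Hmga2 over Hmga1 was -0.46, 0.08 and 0.16 in the E9.5 libraries, -2.63, -1.81 and -1.64 in the E14.5 libraries and -4.42, -4.57 and -4.19 in the P60 libraries. These stages did not overlap (exact permutation test p = 0.0036, adjusted p = 0.0054). Hmga1 overlaps AI413582 on the opposite strand, which had 285 reads at E9.5, 948 at E14.5 and 11412 at P60. How many of the Hmga1 reads at P60 come from that shared stretch was not tested. The near-identical copy Hmga1b had 106 reads at E9.5, 13 at E14.5 and 4 at P60, and how reads that fit both copies were counted is not given in the sources used here.

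Sall4, a zinc-finger transcription factor of pluripotent cells, stood at 129, 130 and 129 CPM in the E9.5 libraries, 3.31, 2.52 and 2.7 CPM in the E14.5 libraries and 0.2, 0.0881 and 0.0884 CPM in the P60 libraries. Its coefficient of variation at E9.5 was the lowest of the 10 genes, at 0.435%. This is below what counting error alone would give for its 3854, 3918 and 4040 reads, so it does not measure how variable Sall4 is. Its log2 fold change was -5.51 ± 0.19 to E14.5 (adjusted p = 1e-08) and -4.49 ± 0.27 to P60 (adjusted p = 1.3e-07). L1td1, an RNA-binding protein derived from a LINE-1 open reading frame and known from embryonic stem cells, was low throughout, at 2.31, 2.22 and 1.82 CPM at E9.5, 0.663, 0.392 and 0.316 CPM at E14.5, and 0.2, 0.499 and 0.147 CPM at P60.

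L1td1 was lower at E14.5 than at E9.5 by 2.21 ± 0.40 on the log2 scale (adjusted p = 0.00057). Between P60 and E14.5 its libraries overlapped, and the log2 fold change of -0.67 ± 0.46 did not pass (adjusted p = 0.21). The ratio of E14.5 over P60 reads was 1.59 with a counting interval of 0.973 to 2.63. Without the second P60 library, its highest, the change was -1.38 (adjusted p = 0.018). The log2 ratio of Sall4 over L1td1 averaged 5.39 ± 0.12 at E9.5, 1.4 ± 0.08 at E14.5 and -0.18 ± 0.25 at P60 (exact permutation test p = 0.0036, adjusted p = 0.0054).

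**Figure D3:**
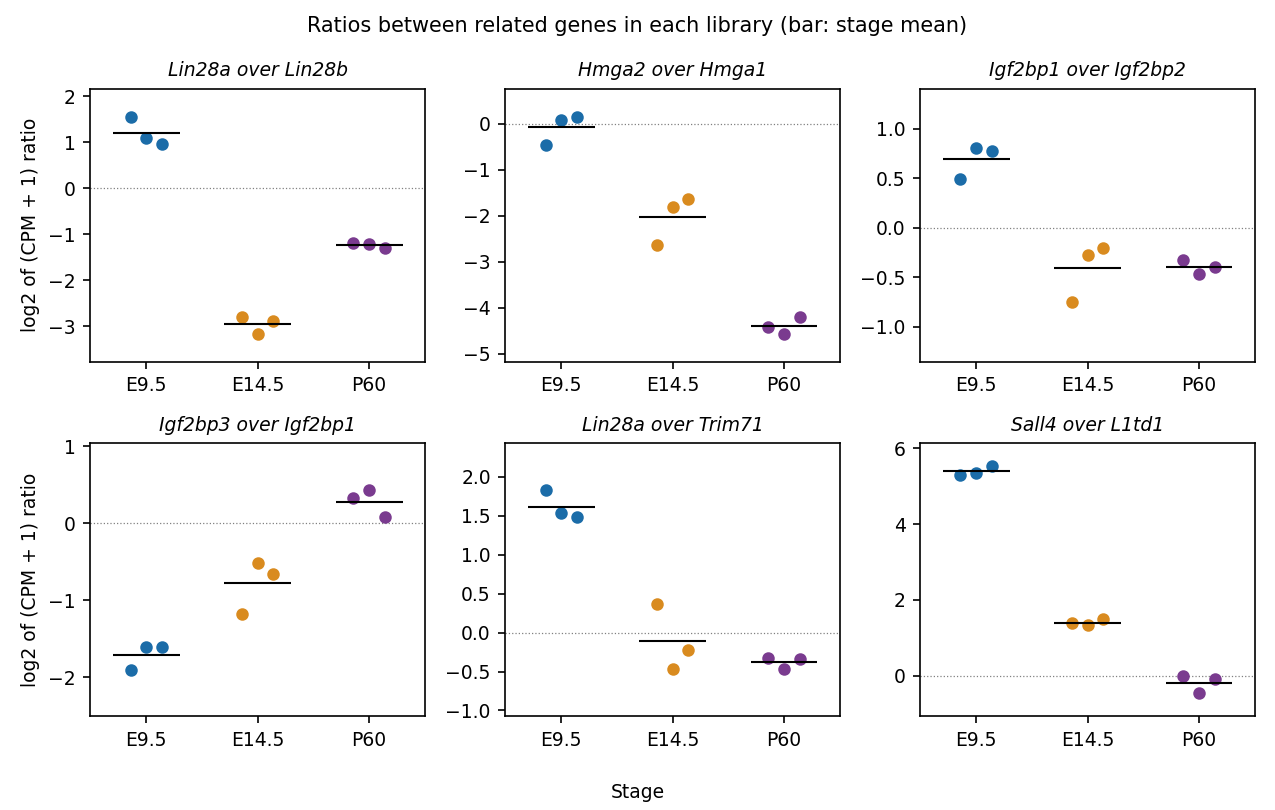
Log2 ratio of (CPM + 1) between 6 pairs of related genes in each library, with the stage mean as a bar and equality as a dotted line. Lin28a over Lin28b changes sign between E9.5 (mean 1.2) and E14.5 (mean -2.96), and Hmga2 over Hmga1 goes down at each stage to a mean of -4.39 at P60. Where both genes have few reads at P60, the ratio lies near 0 because of the added 1 CPM.

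The larger fall on the log2 scale lay in different steps for different genes. The difference between the steps, the second minus the first, was tested as a contrast of the same fit, chosen after the values were seen. It was above 0, a larger fall in the first step, for Trim71 (6.4 ± 0.58, adjusted p = 4.9e-06), Hmga1 (2.49 ± 0.31, adjusted p = 5.6e-05) and Lin28b (1.31 ± 0.26, adjusted p = 0.0014). It was below 0, a larger fall in the second step, for Igf2bp1 (-8.17 ± 0.52, adjusted p = 4.3e-07), Igf2bp2 (-5.08 ± 0.26, adjusted p = 1.1e-07), Igf2bp3 (-4.27 ± 0.58, adjusted p = 9.5e-05) and Hmga2 (-1.94 ± 0.53, adjusted p = 0.0088). These were 3 and 4 of 10 genes, against backgrounds of 25.1% of tested genes above 0 and 37.2% below, shares near those of the members, so the split is not a result about these genes. For Lin28a (4.06 ± 2.45, adjusted p = 0.17), Sall4 (1.01 ± 0.45, adjusted p = 0.073) and L1td1 (1.53 ± 0.76, adjusted p = 0.1) the difference did not pass, while DESeq2 called Lin28a and Sall4 (adjusted p = 0.0045 for Lin28a, 0.038 for Sall4). The steps span unequal times, so these are amounts and not rates. The ± values of this contrast are also the value over the square root of F and not a standard error of the difference. That of Lin28a, 2.45, is above those of its steps (0.34 and 0.72).

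**Figure D4:**
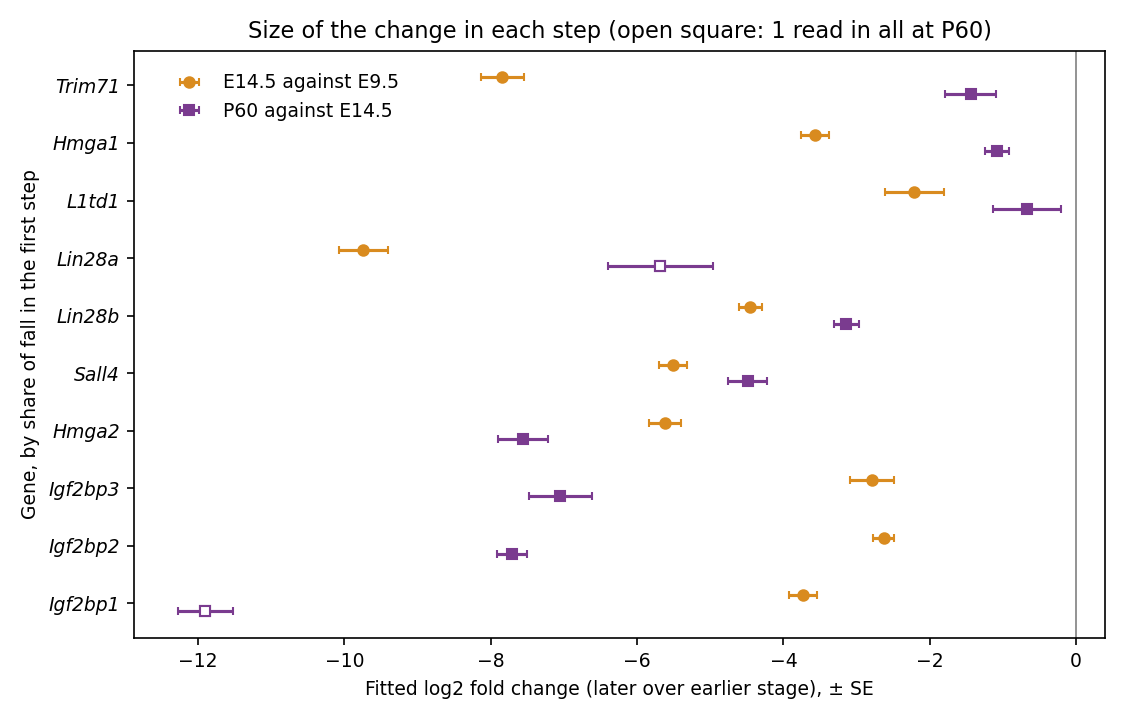
Fitted log2 fold change (± approximate SE) of each heterochronic gene from E9.5 to E14.5 (circles) and from E14.5 to P60 (squares). Genes are ordered by the share of their log2 fall in the first step. Open squares mark Lin28a and Igf2bp1, with 1 read in all at P60. There the fitted value depends on that read and the SE understates the counting error. The share runs from 84.5% for Trim71 to 23.9% for Igf2bp1.

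The order of the 10 genes per kilobase of exon changed with the stage. At E9.5 Hmga1 led with 251 ± 24.5 CPM per kilobase (SD, n = 3), then Lin28a with 154 ± 13.1. Hmga2 (75.2 ± 10.1) and Igf2bp1 (73.4 ± 3.87) overlapped in their libraries, and L1td1 was last with 0.667 ± 0.0823. At E14.5 Hmga1 still led with 21.2 ± 3.72, followed by Igf2bp2 (9.64 ± 1.06), Igf2bp1 (5.54 ± 0.745) and Igf2bp3 (3.89 ± 1.22), which did not overlap. Hmga2 (1.53 ± 0.347) and Lin28b (1.35 ± 0.11) overlapped, and Lin28a had moved to eighth place with 0.18 ± 0.0773. At P60 Hmga1 stood at 10.0 ± 1.52 and the second, Lin28b, at 0.152 ± 0.00681. Below Hmga1 the P60 libraries of most neighbours in the order overlapped, and only Sall4 and Hmga2 did not.

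By distance over log2(CPM + 1) in the 9 libraries, among 15321 genes, the genes closest to each member were named as a description. Closest to Lin28a were Fndc3c1 (distance 2.84), the embryonic globin Hbb-bh1 (2.87) and the neural tube receptor Prtg (3.24). Closest to Lin28b were Frem2 (1.67), Zfp568 (1.68) and the hexokinase Hk2 (1.8). Closest to Igf2bp2 was Uhrf1 (1.2), which carries DNA methylation through replication, then the replication factor Pclaf (1.48) and cyclin Ccna2 (1.57). Uhrf1 was also closest to Igf2bp1 (1.92), before the embryonic globin Hba-x (2.51) and Igdcc3 (2.65). Hmga1 lay near Yap1 (1.76), Ybx3 (1.93) and the replication helicase subunit Mcm4 (1.96), Hmga2 near Igdcc3 (2.25), Lrp2 (3.2) and Greb1 (3.29), and Sall4 near Slc4a1 (1.26), Aldh1a3 (1.55) and Fignl2 (1.63).

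Marker lists of surface ectoderm, mesenchyme and erythroid cells were mostly lower at E14.5 than at E9.5, and that of germ cells was not. All 8 surface ectoderm markers were lower at E14.5 than at E9.5, with a summed level of 13.9 to 16.0 CPM at E14.5 against 240 to 354 CPM at E9.5, and none was without reads. Of the 8 cranial mesenchyme and neural crest markers 7 were lower, each at least 2-fold, and 1 higher. They summed to 156 to 222 CPM at E14.5 against 250 to 292 CPM at E9.5. Most of the E14.5 sum was Tfap2b, the marker that was higher, so the sum understates the fall of the others. Tfap2b stood at 127, 154 and 182 CPM at E14.5 and at 49.8, 56.6 and 62.0 CPM at E9.5. All 5 erythroid markers fell in both steps, with summed levels of 4110 to 5600 CPM at E9.5, 163 to 321 CPM at E14.5 and 0.822 to 1.57 CPM at P60. The 5 germ cell markers summed to 6.2 to 6.66 CPM at E9.5, 4.89 to 5.24 CPM at E14.5 and 6.6 to 7.98 CPM at P60. Of the 4 that could be tested, Ddx4 (0.99), Dazl (2.24) and Nanos3 (1.28) were higher at E14.5 than at E9.5 on the log2 scale and Prdm1 was lower (-1.82 ± 0.38, adjusted p = 0.0014), while Dppa3 had 2 reads in all at E9.5, 1 at E14.5 and none at P60. The part of these other cells in the fall of the heterochronic genes was not tested.

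Cell cycle markers fell in both steps too, while markers of neural progenitors did so mainly in the second. All 12 cell cycle markers were lower at E14.5, at 1180 to 1370 CPM against 4710 to 4890 CPM at E9.5, and 11 of 12 were lower and 1 higher at P60, at 129 to 160 CPM. Of the 10 neural progenitor markers, 2 were lower and 2 higher at E14.5, with a summed level of 2100 to 2820 CPM against 1590 to 1870 CPM at E9.5, and all 10 were lower at P60, at 220 to 238 CPM. All 7 mature neuron markers rose in both steps, with 22.7 to 25.0 CPM at E9.5, 401 to 538 CPM at E14.5 and 5620 to 7520 CPM at P60. Oligodendrocyte markers reached 12800 to 15200 CPM at P60, against 44.5 to 68.9 CPM at E14.5. In the first step the members' median log2 change was -4.09, that of the cell cycle markers -1.91, that of the neural progenitor markers -0.07, and that of all tested genes 0.03. The median was -5.03 for surface ectoderm, -3.63 for erythroid cells and -2.33 for cranial mesenchyme and neural crest. For the 5 tested heart and muscle markers it was -5.82, which rests largely on the first E9.5 library. The 6 listed heart and muscle markers summed to 338 CPM there, against 5.49 and 5.64 CPM in the other E9.5 libraries. As the surface ectoderm list shows, a median as low as the members' is not particular to them. Without the first E9.5 library, or without the first E14.5 library, 10 of 10 heterochronic genes were lower at E14.5, 9 of 10 lower at P60 than at E14.5, and 10 of 10 lower at P60 than at E9.5.

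Genes of the machinery that makes and turns over microRNAs were mostly lower at P60. Of 16 genes, 8 were lower and 2 higher at E14.5 than at E9.5, and 15 were lower and none higher at P60 than at E14.5. For this list and those below, the background in the first step is 30.7% of tested genes lower and 34.0% higher. In the second step it is 39.4% lower and 36.7% higher. Ago2, the slicing Argonaute, fell by 1.45 ± 0.42 on the log2 scale to E14.5 (adjusted p = 0.01), and Xpo5, the exporter of microRNA precursors, by 1.18 ± 0.28 (adjusted p = 0.0037). Ago4 went the other way, at 48.3 ± 2.91 CPM in E14.5 against 3.32 ± 0.568 CPM in E9.5 libraries. In the step to P60, Ago1 fell by 3.34 ± 0.27 and Tut4, the uridylyl transferase that LIN28A recruits to let-7 precursors, by 3.33 ± 0.25. Tut4 averaged 10.9 ± 3.18 CPM at P60 and 110 ± 24.0 CPM at E14.5.

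Of 20 other genes listed as let-7 targets, 14 were lower and 3 higher at E14.5 than at E9.5, 18 were lower and 1 higher at P60 than at E14.5, and 20 of 20 were lower over the whole interval. Over the whole interval 40.6% of all tested genes were lower. The list's median log2 change was -0.89 in the first step and -2.53 in the second, against 0.03 and -0.06 over all tested genes. For the cell cycle markers the medians were -1.91 and -5.81, and the list itself was not tested. Nr6a1, a nuclear receptor of early embryos, stood at 206, 246 and 213 CPM in the E9.5 libraries, 5.09, 6.82 and 6.87 CPM in the E14.5 libraries and 2.7, 4.81 and 2.12 CPM in the P60 libraries. Nr6a1 changed by -5.15 ± 0.29 and then by -0.96 ± 0.27 on the log2 scale. Arid3b fell by 3.05 ± 0.22 to E14.5, and Cdk6, a cyclin-dependent kinase of G1 phase, by 5.8 ± 0.31 to P60. Insr was higher at E14.5 (0.92 ± 0.23, adjusted p = 0.0044) and Cdc34 higher at P60 than at E14.5 (0.72 ± 0.21, adjusted p = 0.0088).

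Genes were also grouped only by the letters of their 3′ UTR. Among tested genes other than the 10 members, 13805 had no let-7 seed match, and 37.6% of them were lower at P60 than at E14.5, with a median log2 change of 0.04. Of the 1557 with 1 or more matches 48.4% were lower (median -0.39), of the 193 with 2 or more 61.1% (median -0.79), and of the 24 with 3 or more 19 (79.2%, median -1.75). In the first step 31.7%, 34.5% and 38.9% of the first 3 groups and 12 of the 24 genes with 3 or more matches were lower. The median length of the 3′ UTR rose along these groups (1021, 2357, 3601 and 4461.5 bases), and genes with a miR-125 match, at a median of 2256.5 bases, were lower in 44.8%. The part of UTR length in these shares was not tested.

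Beside the 4 members, 8 genes hold 4 or more let-7 matches, and they did not all move one way. Trim6, with 6 matches, stood at 14.2, 14.1 and 13.9 CPM in the E9.5 libraries, 0.392, 0.308 and 0.489 CPM in the E14.5 libraries and 0.1, 0.205 and 0.265 CPM in the P60 libraries. Hic2, with 4, changed by -1.51 ± 0.17 and then by -2.99 ± 0.19 on the log2 scale. Mcf2l, with 7, was higher at E14.5 (244 ± 13.7 CPM) than at E9.5 (25.2 ± 1.83 CPM) and lower again at P60 (73.6 ± 16.7 CPM), and Nudt12, also with 7, was lower at E14.5 and higher at P60 (10.8 ± 1.11 CPM at P60, 2.91 ± 1.23 CPM at E14.5).

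Poly(A)-primed libraries do not measure mature let-7, but they hold transcripts that run over let-7 genes, most of which were looked up after the values were seen. The transcript 3110039I08Rik, for which RefSeq gives the name Mir100hg, covers Mirlet7a-2 and also the miR-125 gene Mir125b-1. It stood at 16.7, 22.3 and 26.1 CPM in the E9.5 libraries, 213, 226 and 256 CPM in the E14.5 libraries and 16.8, 19.3 and 17.0 CPM in the P60 libraries. 3110039I08Rik rose by 3.41 ± 0.19 on the log2 scale to E14.5 (adjusted p = 8.6e-08) and fell by 3.71 ± 0.19 to P60 (adjusted p = 4.5e-08). Its difference between P60 and E9.5 did not pass (-0.29 ± 0.17, adjusted p = 0.14). Mir99ahg, which covers Mirlet7c-1 and also Mir125b-2, averaged 1.43 ± 0.399 CPM at E9.5, 7.85 ± 1.42 CPM at E14.5 and 3.87 ± 1.47 CPM at P60. It rose by 2.45 ± 0.33 to E14.5 (adjusted p = 6.3e-05) and fell by 1.02 ± 0.30 to P60 (adjusted p = 0.01).

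The transcript 6720427I07Rik, over Mirlet7a-1, Mirlet7d and Mirlet7f-1, averaged 7.34 ± 0.344 CPM at E9.5, 4.53 ± 0.725 CPM at E14.5 and 1.92 ± 0.574 CPM at P60, and Huwe1 and Spaca6, which run over other genes of the family, were also lower at P60 than at E14.5 (log2 -2.34 ± 0.27 and -2.18 ± 0.15). The first-step differences of these 3 were small, and each lost its call when single libraries were left out. For Spaca6 this happened with 7 of 9 libraries (E9.5 replicates 2 and 3, every E14.5 replicate, and P60 replicates 1 and 3). For Huwe1 it happened with 4 (E9.5 replicates 2 and 3, E14.5 replicate 1 and P60 replicate 1), and for 6720427I07Rik with 3 (E9.5 replicate 2 and E14.5 replicates 2 and 3). Wdr82, over Mirlet7g, was a little higher at E14.5 than at E9.5 (0.48 ± 0.14, adjusted p = 0.011).

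Rows for the let-7 hairpins themselves held few reads. Mirlet7b had 0 reads in each E9.5 library, 1 in each E14.5 library and 11, 4 and 28 at P60, and Mirlet7c-2 had 0 at E9.5, 2 in all at E14.5 and 16, 5 and 11 at P60. The ratio of P60 over E14.5 was 15.2 for Mirlet7b (counting interval 4.85 to 76.4) and 16.9 for Mirlet7c-2 (4.32 to 146). Against 3 reads over the E9.5 libraries, P60 was at least 13.4-fold higher for Mirlet7b and at least 9.95-fold higher for Mirlet7c-2. Without the third P60 library, which held 28 of the 43 reads of Mirlet7b, these values of Mirlet7b were 8.09 (2.29 to 43.6) and at least 7.13-fold. The 2 hairpins lie close together on chromosome 15, so they are not independent of each other. No other hairpin row of the family had more than 10 reads in a stage. Unlike Mirlet7b and Mirlet7c-2, those others, apart from Mirlet7i, lie inside a same-strand gene with its own row. How reads that fit both rows were counted is not given, so the reads of different hairpin rows cannot be compared.

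The loops of the precursors differ in the letters that LIN28 proteins are known to grip. GGAG lies between the mature arms in 9 of the 12 let-7 family hairpins of RefSeq and not in Mirlet7b, Mirlet7c-2 and Mir98. One hairpin with it (in capitals) and the 2 neighbours on chromosome 15 without it show the difference.
Mirlet7g, chr9:106178840-106178927, plus strand: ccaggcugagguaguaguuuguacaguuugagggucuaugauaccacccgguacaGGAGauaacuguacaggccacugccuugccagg
Mirlet7b, chr15:85707319-85707403, plus strand: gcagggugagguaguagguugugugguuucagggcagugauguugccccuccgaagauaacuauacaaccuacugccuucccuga
Mirlet7c-2, chr15:85706603-85706697, plus strand: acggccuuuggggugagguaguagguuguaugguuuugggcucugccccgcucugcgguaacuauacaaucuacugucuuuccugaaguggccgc

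No row of the table gave the amount of any mature microRNA, so the levels of let-7 beside those of Lin28a and Lin28b were not measured.

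**Figure D5:**
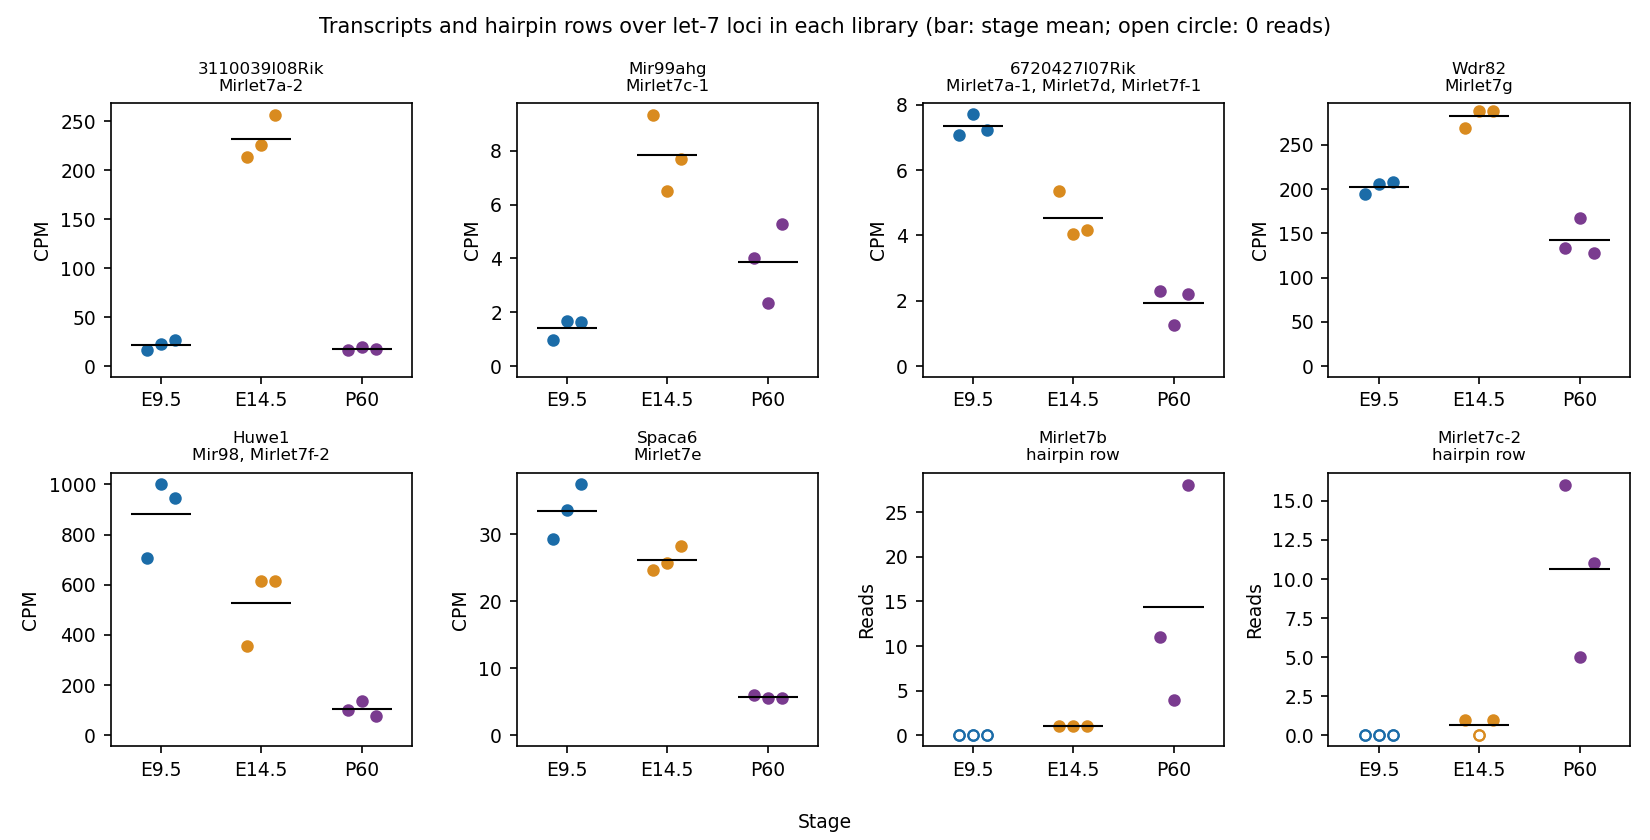
CPM of 6 transcripts that run over let-7 genes, and reads of 2 let-7 hairpin rows, in each library, with the stage mean as a bar, open circles for libraries without a read, and the let-7 genes covered named above each panel. 3110039I08Rik peaks at E14.5 with a mean of 231 CPM, and the Mirlet7b and Mirlet7c-2 rows have their reads mainly at P60.

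Among messages known to be bound by IGF2BP proteins, H19, an imprinted RNA, fell in both steps. H19 stood at 1810, 1250 and 1420 CPM in the E9.5 libraries, 241, 258 and 285 CPM in the E14.5 libraries and 0.3, 0.0881 and 0.353 CPM in the P60 libraries. Of the 7 listed messages, 4 were lower and 2 higher at E14.5 than at E9.5, and 5 were lower and 1 higher at P60 than at E14.5. Myc changed by -1.42 ± 0.16 and then by -2.94 ± 0.17 on the log2 scale, while Gap43, a growth cone protein, was higher at E14.5 (633 ± 102 CPM) than at E9.5 (47.1 ± 6.47 CPM). Of 12 genes of the insulin-like growth factor axis, 5 were lower and 1 higher at E14.5, and 10 were lower and none higher at P60 than at E14.5. Igf1r, the receptor, did not pass in the first step (-0.39 ± 0.29, adjusted p = 0.26) and fell by 3.53 ± 0.33 in the second.

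Other HMG chromatin proteins were described beside the Hmga genes. Of 7 HMG-box and HMGN genes, 4 were lower and none higher at E14.5 than at E9.5, and 6 were lower and none higher at P60 than at E14.5. Hmgb2 changed by -1.64 ± 0.26 and then by -4.3 ± 0.30 on the log2 scale. At the Ink4 locus, Cdkn2a, the gene that Hmga2 is known to hold down, had too few reads to be tested, with 1, 0 and 1 reads in the E9.5 libraries, 1, 2 and 1 in the E14.5 libraries and 13, 7 and 1 in the P60 libraries. Of the 6 tested genes of that list 2 were higher and none lower at E14.5, and 4 were higher and 2 lower at P60 than at E14.5. Junb, known to act between Hmga2 and Ink4a, stood at 56.3 ± 3.62 CPM at P60 and 5.04 ± 0.792 CPM at E14.5 (3.48 ± 0.18, adjusted p = 4e-08), and Cdkn2b at 1.22 ± 0.62 CPM at P60 and 0.0441 ± 0.0513 CPM at E9.5 (4.68 ± 0.76, adjusted p = 0.00015).

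Genes of pluripotency moved both ways. Of 19 listed, 11 could be tested, with 2 lower and 4 higher at E14.5 than at E9.5, and 6 lower and 2 higher at P60 than at E14.5. Among those with too few reads to be tested, Utf1 had 22, 9 and 7 reads in the E9.5 libraries, 1, 0 and 0 in the E14.5 libraries and 0, 0 and 1 in the P60 libraries, and Fgf4 had 18, 7 and 11 reads at E9.5 and none later. Pou5f1 had no read at E9.5 or E14.5 and Prdm14 none in any library, where a library with no read still allows up to 3. Dnmt3b, a DNA methyltransferase of the early embryo, changed by -3.77 ± 0.26 and then by -4.02 ± 0.32 on the log2 scale. Esrrb was higher at E14.5 (8.74, 13.2 and 14.0 CPM) than at E9.5 (0.97, 0.365 and 0.415 CPM). Of 6 relatives of Sall4 and Trim71, 1 was lower and 3 higher at E14.5 than at E9.5, and 4 were lower and 1 higher at P60 than at E14.5. Their difference from Sall4 and Trim71 was not tested. The 3 higher at E14.5 were the Trim71 relatives Trim2 (1.79 ± 0.20), Trim3 (1.52 ± 0.13) and Trim32 (1.18 ± 0.18, log2). From E14.5 to P60 Trim3 was higher again (0.88 ± 0.12), Trim2 lower (-0.83 ± 0.19), and Trim32 did not pass (-0.27 ± 0.18, adjusted p = 0.19). The Sall genes did not rise. In the first step the log2 fold change was -0.15 ± 0.19 for Sall1 (adjusted p = 0.53), -0.06 ± 0.26 for Sall3 (adjusted p = 0.86) and -0.82 ± 0.16 for Sall2 (adjusted p = 0.001). In the second it was -2.95 ± 0.21 for Sall1 (adjusted p = 4.4e-07), -4.13 ± 0.31 for Sall3 (adjusted p = 5.6e-07) and -1.58 ± 0.17 for Sall2 (adjusted p = 7.3e-06).

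Temporal factors of neural progenitors moved both ways in the first step. Of 10 listed, 5 were higher and 2 lower at E14.5 than at E9.5, and 9 were lower and 1 higher at P60 than at E14.5. Nfix stood at 562, 347 and 295 CPM at E14.5 against 1.3, 0.199 and 0.351 CPM at E9.5, a log2 change of 9.34 ± 0.70 (adjusted p = 7.7e-07). Nfib averaged 507 ± 84.8 CPM at E14.5 and 4.85 ± 0.245 CPM at E9.5 (6.71 ± 0.20, adjusted p = 7.9e-09). Casz1, which is known from late retinal progenitors of the mouse, was lower at E14.5 (-1.39 ± 0.22, adjusted p = 0.00025). Of 6 microRNA host transcripts 5 rose in the first step, and all 6 were lower at P60 than at E14.5 (log2 -2.94 ± 0.17 for Mir124a-1hg and -0.9 ± 0.16 for Mir9-3hg). In the first step Mir124a-1hg, host of the neuronal miR-124, stood at 145 ± 16.4 CPM at E14.5 and 3.96 ± 0.734 CPM at E9.5, and Mir9-3hg at 61.1 ± 3.44 CPM at E14.5 and 2.72 ± 0.167 CPM at E9.5. Mir17hg, host of a cluster tied to proliferation, was lower, with changes of -2.99 ± 0.22 to E14.5 and -5.97 ± 0.31 to P60.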

How the data were processed

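Whole-tissue CNS RNA of C57BL6/J mice was sequenced from poly(A)-primed, PCR-amplified cDNA. The deposited table holds raw read counts per gene, and the submitters' processing notes name Trimmomatic 0.36, STAR 2.5.2b and mm10. The counting program, annotation and strand setting are not given in the sources used here. Library totals ran from 30481975 to 35619093 counts. Of 45706 identifiers 16156 had no read, and 45143 matched GENCODE M21, which gave symbols, coordinates and exon lengths. The spread between libraries (biological coefficient of variation 19.9%), not depth, limits precision for abundant genes.

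Counts were tested with edgeR 4.0.16 in R 4.3.3 (quasi-likelihood test, robust, stage as the only factor over all 9 libraries, TMM normalisation after filterByExpr, two-sided, Benjamini-Hochberg over 17971 genes, threshold 0.05). The fit was also run on simulated counts with few changed genes and the same spread for all genes. These data differ in both, so the simulation does not give the share of false calls here. The SE of a fitted change is its absolute value over the square root of F, an approximation that is too small at very few reads. CPM used TMM-adjusted totals, ratios log2(CPM + 1). Ratio intervals are exact, at 95%, and like the floor of 3 reads they cover counting error only. DESeq2 1.42.0, other scalings, no filter, a replicate block, fits of 2 stages, and fits without each library were alternatives. Seed matches were exact letters in the 3′ UTR of the longest coding transcript, and microRNA sequences are those of RefSeq (GRCm38.p6).

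The members, lists and tests were chosen with earlier results of these data known. The contrast between steps, the let-7 transcripts and the hairpin values without single P60 libraries were added after the values were seen. From each pathway list and comparison the text took genes from up to 2 called ones with the largest change in the direction most members took and up to 1 in the opposite direction, and the 3 nearest genes by distance for 7 members. Cdkn2a, Pou5f1, Prdm14, Utf1, Fgf4, Tfap2b, the Sall and Trim relatives, the germ cell markers, most let-7 loci, overlapping genes and the genes with 4 or more let-7 matches were named outside that rule. Deviations of E9.5 and E14.5 libraries with the same replicate number had correlations of 0.37, 0.141 and 0.209. Differently numbered libraries reached similar values (0.185 for E9.5 #2 with E14.5 #3, 0.202 for E9.5 #3 with E14.5 #2), while the rest ran from -0.29 to -0.224. Same-numbered libraries compared with P60 ranged from -0.224 to 0.337. The labels give no pairing, so the main fit used none, and the replicate block was only an alternative.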

Additional observations from a re-analysis of the deposited data

How the results depend on the processing

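Under 16 alternatives each, the members' calls in the 3 comparisons of stages stayed on their side of the threshold, except L1td1 between P60 and E14.5 (15 of 16), which passed without the second P60 library (-1.38, adjusted p = 0.018). The values of Lin28a and Igf2bp1 at P60 rest on the 1 read in the first P60 library. Without that library their fitted change to P60 was -7.57 and -13.8 from E14.5, and -17.29 and -17.5 from E9.5. L1td1 at P60 against E9.5 moved to -3.58 without the second P60 library. With the replicate block, 12121 genes were called for E14.5 against E9.5, against 11613 without it, and the block changed no call of a member.

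Members with a larger fall in the first step numbered 5 under DESeq2, and 3 to 5 when single libraries were left out (5 without E14.5 replicate 1, which added Sall4 and L1td1), and Sall4 also passed under 2 other scalings (1.2 and 1.18). The change of Igf2bp1 over Igf2bp2 from E14.5 to P60, near 0 as reported, reversed to -1.56 with 0.1 CPM added, and lay between -0.16 and 0.11 when single libraries were left out (-0.16 without E14.5 replicate 1, -0.03 without P60 replicate 1). With 0.1 CPM added, 1 of the 3 nearest genes was shared for Igf2bp1, for Hmga2 and for Sall4. 3110039I08Rik at P60 against E9.5 passed only without E9.5 replicate 1 (-0.45, adjusted p = 0.027). Other scalings moved the median of all genes by up to 0.16 for P60 against E14.5 (upper quartile) and by -0.14 (library totals), small beside the members' changes. Depth limits Lin28a, Igf2bp1 and Hmga2 at P60, where 1, 1 and 5 reads remain in all.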
